A study of Sus scrofa with 12 samples.

Results

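The PGC-1 coactivators and the regulators of oxidative metabolism that work with them were examined for chromatin accessibility in pig muscle. The 9 genes PPARGC1A, PPARGC1B, ESRRA, ESRRG, PPARA, PPARD, NRF1, TFAM and PERM1 were chosen by name, of 19550 protein-coding genes placed on Sscrofa11.1. An open region was assigned to a gene when its midpoint lay in the gene body or within 10 kb of it, which gave 209 regions of the 140081 in the series. ATAC-seq uses a transposase to cut DNA where chromatin is open, and the number of reads at a site measures its accessibility. It was performed on the longissimus dorsi, a back muscle of mainly fast fibers, of 3 Duroc and 3 Luchuan boars aged 180 days that were raised on the same feeding conditions. Food was withheld overnight from the animals of both breeds before they were killed, so the muscle was sampled after fasting. Duroc is a lean commercial breed and Luchuan a small Chinese breed. RNA-seq of the same muscle is not analysed here, so nothing below is a level of mRNA.

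In muscle, the coactivators PGC-1α and PGC-1β bind no DNA themselves and act through transcription factors that do. They switch on genes of the mitochondria through the estrogen-related receptors and the nuclear respiratory factors, and genes of fatty acid oxidation through the PPAR receptors. PGC-1α is induced by exercise, cold and fasting, and oxidative fibers carry more of it than glycolytic fibers.

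Each region had 1 read count for Duroc and 1 for Luchuan. The column names give a breed and no replicate, so each count was read as pooled over the boars of the breed, and no spread between animals and no test between breeds could be had. The regions of the series held 20760292 Duroc reads and 13746432 Luchuan reads, with medians of 61 and 38 per region. Differences are given as the log2 ratio of Luchuan to Duroc reads with 1 read added to each, scaled so that the median of all regions with at least 50 reads of both breeds was 0. Positive values mean more reads in Luchuan. The 95% Clopper-Pearson intervals beside them cover counting error only, since each breed had 1 count per region. They treat every read as independent, and whether copies of 1 molecule were removed is not given in the sources used here. A region was called when it had at least 50 reads and differed 2-fold or more.

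The tissue label was checked on the same table. The 7 muscle genes that could be placed, among them ACTA1, DES, TTN and MYOD1, had 299 open regions, while the marker lists of adipocytes, endothelium, leukocytes and hepatocytes had 11, 26, 13 and 5. Of the 299, the very long genes TTN and RYR1 held 188 and 54, and the other muscle genes had between 8 and 14 each. The adipocyte gene FABP4 and the hepatocyte gene FGA had no region. Fiber markers were lower in Luchuan, with 6 of 7 slow fiber genes and 6 of 6 fast fiber genes below 0 and median gene ratios of −0.29 and −0.25. The part of fiber makeup in the differences described here was not tested, and with bulk tissue fewer nuclei of a type and less accessibility per nucleus cannot be told apart.

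Chromatin of the group was more accessible in Luchuan, and ESRRG and PPARGC1A carried most of the difference. Of the 209 regions, 155 had at least 50 reads. Among them, 19 (12.3%) were 2-fold or more higher in Luchuan, against 2.8% of all 102256 regions with that many reads. None of the 155 was 2-fold or more higher in Duroc, against 4.58% of all regions. The counting interval lay above 0 in 67 member regions and below 0 in 7, and the background shares were 15.1% and 16.5%. The median ratio over the member regions was 0.29, with quartiles of 0.04 and 0.66, and that over all regions was 0.00, with quartiles of −0.30 and 0.25.

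These shares rested on the 2 long genes. Without ESRRG, 6 of 111 regions (5.41%) were called and the median was 0.18. Without ESRRG and PPARGC1A, 1 of 65 (1.54%) was called and the median was 0.06. The 7 other genes therefore had a share of calls below the 2.8% of all regions. The counts also depend on the scaling. When the libraries were scaled by their total of clean reads, every ratio moved by −0.25, the member calls became 8 higher in Luchuan and 1 higher in Duroc, and the shares over all regions became 1.51% and 8.32%.

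**Figure D1:**
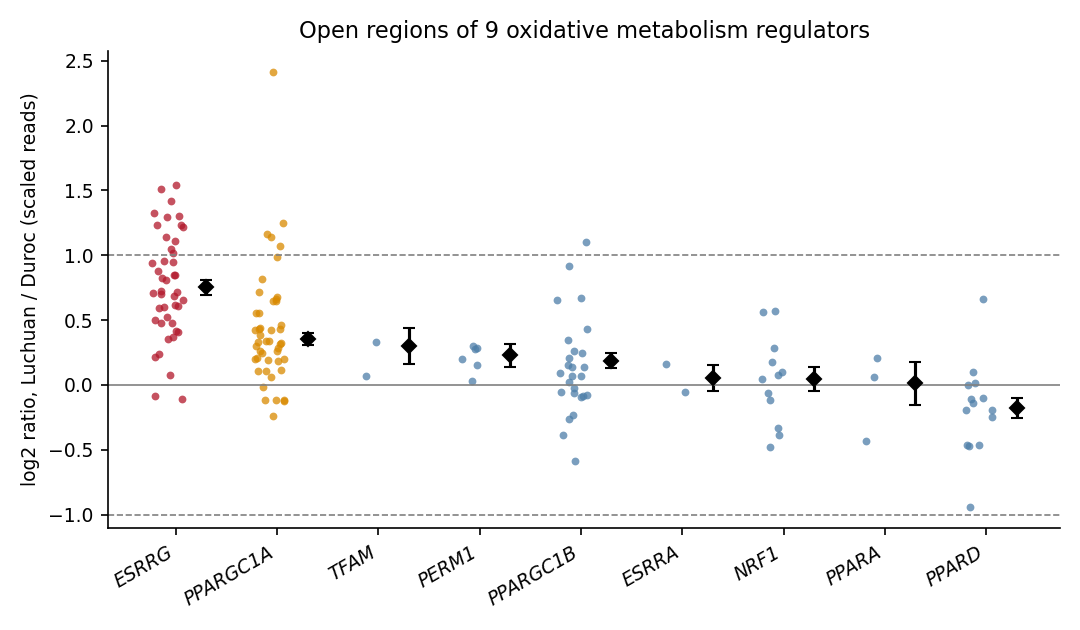
Log2 ratio of Luchuan to Duroc reads (vertical axis) for each of the 155 open regions with at least 50 reads, by gene, with dashed lines at 2-fold. The black diamond beside each gene is the ratio of its summed reads with its 95% counting interval, highest in ESRRG at 0.75 and lowest in PPARD at −0.18.

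ESRRG encodes estrogen-related receptor gamma, an orphan nuclear receptor that partners the PGC-1 coactivators and is abundant in oxidative muscle and heart. The gene covers 661 kb at chr10:6710615-7371419. Its 72 regions held 4673 Duroc reads and 5131 Luchuan reads, so that Luchuan had more reads even before scaling although its libraries were shallower. The summed ratio was 0.75 (0.69 to 0.81), a 1.68-fold higher accessibility in Luchuan. Of the 13836 genes with at least 500 reads, 59 had a higher summed ratio. Those genes had a median of 0.04 and a 95th percentile of 0.36.

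Long genes varied more, and ESRRG stood high among them too. The 203 genes of 500 kb or more with at least 500 reads had a median of 0.08 and a 95th percentile of 0.61, and 3 of them were higher than ESRRG. Of its 44 regions with at least 50 reads, 42 were above 0 and 13 (29.5%) were 2-fold or more higher in Luchuan, where the regions of long genes gave 4.98%. The counting interval lay above 0 in 32 of the 44 regions (72.7%) and below 0 in none. Over the regions of long genes these shares were 18.7% and 17.1%.

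Calls of 2-fold are easier to reach at few reads, so regions were also set beside others of the same depth. At 50 to 99 reads, 7 of 15 ESRRG regions were 2-fold or more higher in Luchuan, against 5.37% of all regions of that depth. From 100 to under 200 reads there were 4 of 14, against 2.78%. Over both bands the share of all regions was 4.2%. All 7 ESRRG regions with 400 reads or more had an interval above 0, with a median ratio of 0.70. The 25037 regions of that depth had a median of 0.05, and 24.1% of them had an interval above 0. The difference in ESRRG was present at every depth examined.

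**Figure D2:**
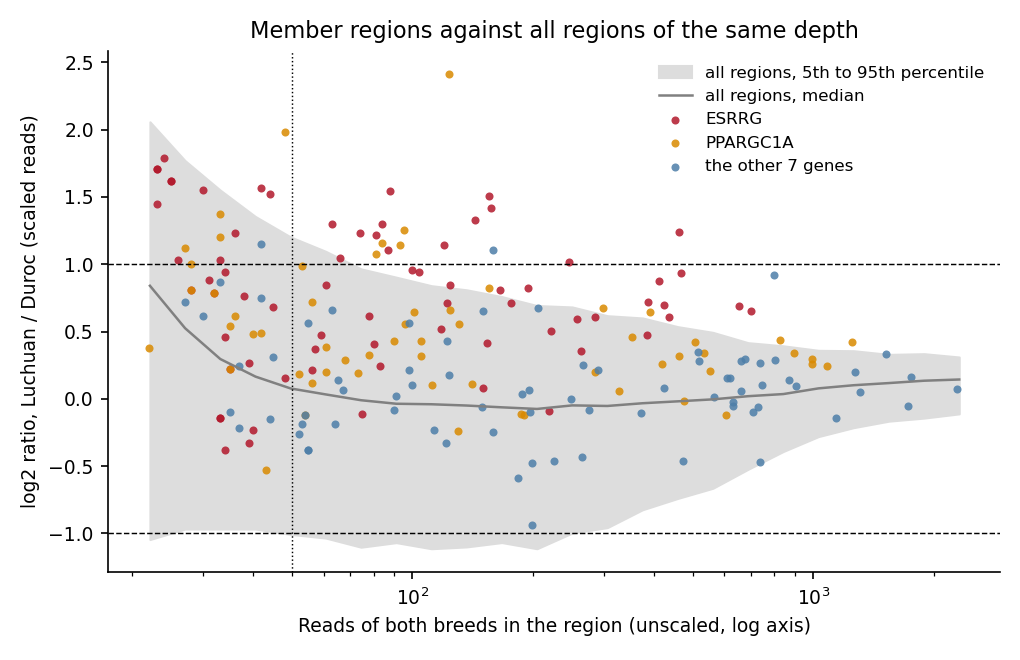
Log2 ratio of Luchuan to Duroc reads against the unscaled reads of both breeds (log axis) for member regions with at least 20 reads. Behind them are the 5th to 95th percentile (grey) and median (line) of all regions of the same depth. ESRRG regions (red) lie mostly above the grey band or in its upper part, also in the 7 regions with 400 reads or more, while those of the 7 other genes (blue) scatter around the line.

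The ESRRG difference was spread along the gene. Regions with at least 50 reads fell into 10 clusters separated by more than 20 kb, and the summed ratio was above 0 in each of them. The cluster with the most reads, at chr10:7011222-7046332, held 11 regions that all had an interval above 0, and 5 of them were called. Its reads summed to 1531 in Duroc and 1803 in Luchuan, a ratio of 0.85 (0.75 to 0.95). The cluster at chr10:7143226-7153980 held 4 regions, 3 of them called, with 324 Duroc and 461 Luchuan reads and the ratio 1.12 (0.92 to 1.34). The lowest summed ratio of a cluster was 0.39 (0.14 to 0.64), over 5 regions at chr10:6818613-6851368.

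Among ESRRG regions with at least 50 reads, the highest ratios lay in the cluster with the most reads. The region chr10:7012859-7013169 had 30 Duroc and 58 Luchuan reads, a ratio of 1.55 (0.91 to 2.26). The region chr10:7030537-7030801 had 54 and 101 reads, with 1.51 (1.03 to 2.03). The region chr10:7011605-7012016 had 57 and 100 reads, with 1.42 (0.94 to 1.92). These 3 had been listed as peaks of Luchuan alone, although Duroc had reads in each.

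The other called regions of this cluster were smaller in ratio. The region chr10:7025004-7025162 had 32 and 49 reads, with 1.22 (0.56 to 1.92). The region chr10:7011222-7011537 had 49 and 71 reads, with 1.14 (0.61 to 1.71). The ESRRG region with the most reads also lies here, at chr10:7040899-7041666, with 345 Duroc and 354 Luchuan reads and the ratio 0.65 (0.44 to 0.87), which is under 2-fold.

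In the smaller cluster beside it, the region chr10:7145498-7146146 was the called region with the deepest coverage of any member, with 182 Duroc and 280 Luchuan reads and the ratio 1.24 (0.96 to 1.52). The called regions nearby, at chr10:7153783-7153980 and chr10:7151120-7151315, had 24 and 28 Duroc reads and 39 and 38 Luchuan reads, with ratios of 1.30 and 1.04. Both are shallow, with intervals that reach down to 0.55 and 0.32.

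Called regions were also found toward both ends of ESRRG. Toward the lower end, chr10:6730043-6730421 had 54 Duroc and 89 Luchuan reads and the ratio 1.33 (0.83 to 1.85), and chr10:6940002-6940220 had 29 and 45 reads with 1.23 (0.55 to 1.98). Near the upper end, chr10:7368264-7368444 had 32 and 52 reads with 1.30 (0.66 to 2.0), and chr10:7368467-7368874 had 106 and 140 reads with 1.02 (0.64 to 1.40). The remaining call, chr10:7326240-7326446, had 36 and 51 reads with 1.11 (0.48 to 1.78). The 5 regions at the upper end, chr10:7367228-7374488, summed to 468 Duroc and 529 Luchuan reads, and all 5 intervals lay above 0, with a summed ratio of 0.79 (0.61 to 0.98). The only 2 ESRRG regions below 0 with at least 50 reads, at −0.09 and −0.11, lay at chr10:7293063-7293503 and chr10:7297809-7298059, and both intervals included 0.

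**Figure D3:**
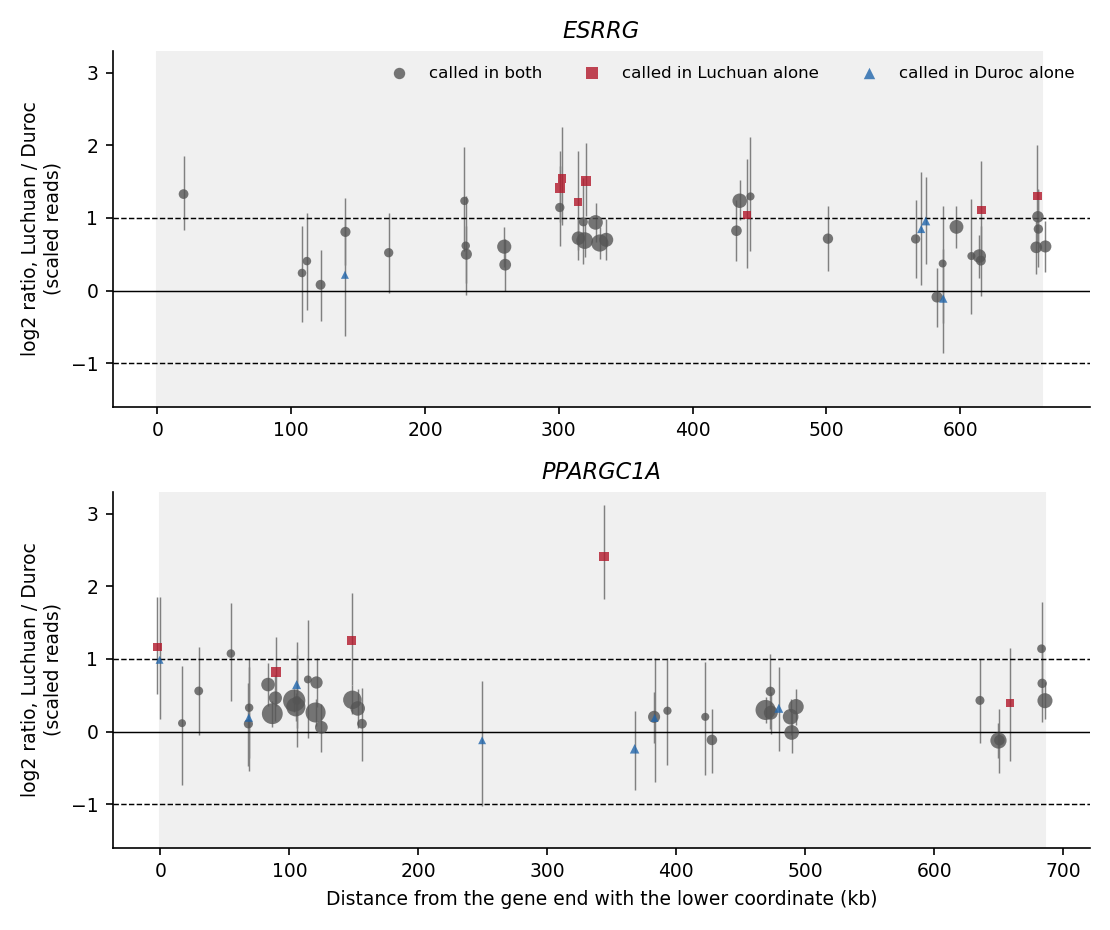
Log2 ratio of Luchuan to Duroc reads along ESRRG and PPARGC1A, against the distance in kb from the gene end with the lower coordinate, for regions with at least 50 reads. Symbols give the class of the peak, their size grows with the reads, bars are 95% counting intervals and grey is the gene body. All ESRRG regions but 2 lie above 0, while in PPARGC1A only the region at 344 kb exceeds 2.

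The neighbouring chromatin did not share one direction. In the 500 kb beyond the lower end of ESRRG, 4 regions had at least 50 reads, with a median ratio of −0.74, and 2 of them were 2-fold or more higher in Duroc. In the 500 kb beyond the upper end, 4 regions had at least 50 reads and a median of 0.48. None of them was called, while 2 had an interval above 0 and 1 an interval below 0. On all of chromosome 10, 4.36% of regions were 2-fold or more higher in Luchuan and 3.84% higher in Duroc.

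ESRRG was also the least accessible member per length of open region. It had 226 Duroc reads and 380 scaled Luchuan reads per kb of open region, against a median of 484 Duroc reads per kb over genes. Peaks listed for Luchuan alone made up 26 of its 72 regions (36.1%), those listed for Duroc alone 12 and those listed for both 34. The share of Luchuan peaks was 19.1% over all regions and 25.2% over the regions of long genes. Most of these Luchuan peaks were shallow, since 19 of the 26 had under 50 reads of both breeds.

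PPARGC1A encodes PGC-1α, the coactivator that gives the group its name. It covers 686 kb at chr8:17841844-18527953 and had 62 regions, with 7919 Duroc and 6606 Luchuan reads. The summed ratio was 0.36 (0.31 to 0.40), 1.28-fold higher in Luchuan, which was percentile 94.8 of genes and percentile 87.2 of long genes. Of 46 regions with at least 50 reads, 40 were above 0, 22 (47.8%) had an interval above 0 and none had an interval below 0. Over all regions these interval shares were 15.1% and 16.5%. The 5 called regions (10.9%) were all higher in Luchuan, against 2.8% of all regions and 4.98% of the regions of long genes.

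The region with the highest ratio of any member lay in the middle of PPARGC1A, at chr8:18185579-18186089, 342 kb from the upper end of the gene. Against 27 reads in Duroc it held 96 in Luchuan, a ratio of 2.41 (1.82 to 3.12) or 5.31-fold, and was listed as a peak of Luchuan alone. No other region with at least 50 reads lay within 20 kb of it. Its nearest tested neighbour, chr8:18209340-18209695, had 84 and 46 reads and the ratio −0.24 (−0.80 to 0.28), and the nearest on the other side, chr8:18091169-18091425, had −0.12 (−1.02 to 0.69). Among regions with at least 50 reads, this difference was therefore not shared by its neighbours, although 3 shallower peaks listed for Luchuan alone lay between them.

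The other called PPARGC1A regions had fewer than 100 reads each. At 50 to 99 reads, 4 of 16 PPARGC1A regions were called, against 5.37% of all regions of that depth. The region chr8:17990092-17990258 had 37 Duroc and 58 Luchuan reads and the ratio 1.25 (0.65 to 1.90). At the ends of the gene, chr8:17839353-17839612 had 34 and 50 reads with 1.16 (0.52 to 1.85), and chr8:18524878-18525127 had 38 and 55 reads with 1.14 (0.53 to 1.79). The region chr8:17896392-17896630 had 34 and 47 reads, with 1.07 (0.42 to 1.77).

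In its well covered regions PPARGC1A differed little but mostly in the same direction. The 13 regions with 400 reads or more had a median ratio of 0.30, and 9 of them (69.2%) had an interval above 0. All regions of that depth had a median of 0.05, and 24.1% had an interval above 0. The region with the most reads, chr8:17944974-17946200, had 666 Duroc and 583 Luchuan reads, with 0.43 (0.26 to 0.59). It belongs to a run of 16 regions at chr8:17896392-17966893 that were all above 0 and summed to 0.38 (0.31 to 0.45). The 3 regions at the upper end, chr8:18524878-18527987, summed to 0.56 (0.34 to 0.77).

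Other stretches of PPARGC1A showed no difference beyond counting error. The 4 regions at chr8:18477114-18500920 summed to 588 Duroc and 375 Luchuan reads, a ratio of −0.03 (−0.22 to 0.16), and the 4 regions at chr8:18209340-18235078 summed to 0.10 (−0.16 to 0.35). The 500 kb beyond each end of the gene had median ratios of 0.11 at the lower and 0.05 at the upper side. On chromosome 8, 3.2% of regions were 2-fold or more higher in Luchuan.

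PPARGC1B encodes PGC-1β, a relative of PGC-1α that also drives mitochondrial genes. It lies at chr2:150823338-150924871 and had 29 regions, with 6005 Duroc and 4454 Luchuan reads and a summed ratio of 0.19 (0.13 to 0.24). Here 16 of 26 regions were above 0 and 10 below. The intervals of 6 (23.1%) lay above 0 and of 1 (3.85%) below, against 15.1% and 16.5% of all regions. The highest ratios were those of neighbouring regions inside the gene. The region chr2:150862278-150863281 had 358 Duroc and 441 Luchuan reads and the ratio 0.92 (0.71 to 1.12), and the called region chr2:150856239-150856517 had 66 and 93 reads and 1.11 (0.64 to 1.59).

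Near the lower end of PPARGC1B the ratios were small. The region with the most reads, chr2:150824577-150826106, had 1358 Duroc and 930 Luchuan reads and the ratio 0.07 (−0.05 to 0.19). Over the end itself, chr2:150822931-150823440 had 388 and 243 reads and −0.06 (−0.30 to 0.18). Farther in, chr2:150826310-150826798 had 414 and 324 reads and 0.26 (0.05 to 0.48), an interval above 0. The single region with an interval below 0, chr2:150889754-150890062, had 128 and 55 reads and −0.59 (−1.08 to −0.13). The sign of the sum changed to −0.06 when the libraries were scaled by clean reads.

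ESRRA encodes estrogen-related receptor alpha, a main partner of PGC-1α on genes of the respiratory chain. The short gene, at chr2:7803504-7812868, had 2 regions, both with a midpoint outside the gene body and nearer to another gene. The region chr2:7801501-7802885 lay in TRMT112, with 1061 Duroc and 665 Luchuan reads and the ratio −0.06 (−0.20 to 0.08). The region chr2:7812719-7813676 spanned the upper end of ESRRA, with its midpoint 0.099 kb from CATSPERZ, and had 1012 and 739 reads and 0.16 (0.03 to 0.30). Their sum was 0.06 (−0.04 to 0.15), and −0.06 with regions scaled within 20 bins of signal. ESRRA had the most accessible regions of the group, with 885 Duroc and 919 scaled Luchuan reads per kb of open region. ESRRA and ESRRG thus stood at opposite ends of the group in level, and the intervals of their summed ratios did not overlap.

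PPARD was the one member whose summed ratio lay below 0 after scaling by the median of all regions. Under clean-read scaling, PPARGC1B, ESRRA, PPARA, NRF1 and PERM1 lay below 0 as well. PPARD encodes the PPAR receptor that activates fatty acid oxidation genes in muscle. At chr7:31222533-31295221 it had 16 regions, with 3690 Duroc and 2125 Luchuan reads and a summed ratio of −0.18 (−0.26 to −0.10), which was percentile 13.9 of genes. Of 14 regions with at least 50 reads, 11 were below 0. An interval below 0 was found in 4 (28.6%) and above 0 in none, against 16.5% and 15.1% of all regions.

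The 4 PPARD regions lay inside the gene. The region chr7:31240727-31241049 was the lowest of all member regions, just short of 2-fold, with 149 Duroc and 50 Luchuan reads and the ratio −0.94 (−1.45 to −0.49). The region chr7:31260426-31261092 had 501 and 235 reads, with −0.47 (−0.70 to −0.25). The regions chr7:31265146-31265587 and chr7:31243288-31243662 had ratios of −0.47 (−0.76 to −0.19) and −0.46 (−0.89 to −0.06). The PPARD region with the most reads, chr7:31225347-31226213, lay 3.25 kb from the lower end. It had 718 and 424 reads and −0.14 (−0.32 to 0.03). Between the 4 regions, chr7:31251700-31252862 had 438 and 306 reads and 0.10 (−0.12 to 0.31). The region chr7:31243778-31244170 had −0.11 (−0.42 to 0.20), so the lower ratios were not shared by all regions in the middle of the gene.

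PPARA encodes the PPAR receptor for fatty acids that is best known from liver and is also present in muscle. At chr5:3302755-3321091 it had 4 regions, with 754 Duroc and 496 Luchuan reads and a summed ratio of 0.01 (−0.15 to 0.18). The region with the most reads, chr5:3303936-3304658, had 394 and 267 reads and 0.06 (−0.17 to 0.28). The region chr5:3295212-3295620 had 179 and 86 reads and −0.43 (−0.83 to −0.06), but it lies in the neighbouring gene CDPF1. The interval of the PPARA sum still allows a difference of 0.18 in the direction of Luchuan.

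NRF1 encodes nuclear respiratory factor 1, which activates genes of the respiratory chain and TFAM. At chr18:19008408-19142678 it had 16 regions, with 2351 Duroc and 1584 Luchuan reads and a summed ratio of 0.05 (−0.05 to 0.14). The region at its upper end, chr18:19141891-19143021, was the one with the most reads, 782 and 527, and its ratio was 0.05 (−0.11 to 0.21). Inside the gene, chr18:19102603-19103363 had 0.28 (0.03 to 0.54) and chr18:19023933-19024216 had −0.48 (−0.95 to −0.05). These were the only intervals that excluded 0 among its 12 regions with at least 50 reads. They made up 8.33% in each direction, against 15.1% above and 16.5% below over all regions.

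TFAM encodes the factor that packages mitochondrial DNA and starts its transcription. At chr14:92261713-92279731 it had 2 regions, with 949 Duroc and 762 Luchuan reads and a summed ratio of 0.30 (0.16 to 0.44). Of these reads, 88.6% lay in the region over the upper end of the gene, chr14:92279052-92280135, with 833 and 683 reads and the ratio 0.33 (0.18 to 0.48). The other region, chr14:92287064-92287508, had 116 and 79 reads and 0.07 (−0.37 to 0.49). TFAM stood at percentile 91.2 of genes with a difference of 1.23-fold. All regions of about 1544 reads had a median of 0.12. With regions scaled within 20 bins of signal, the TFAM sum was 0.21.

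PERM1 encodes a muscle protein that is induced by PGC-1 and the estrogen-related receptors and raises the expression of their targets. At chr6:63336116-63341747 it had 6 regions with 2383 Duroc and 1822 Luchuan reads and a summed ratio of 0.23 (0.14 to 0.32). All 6 were above 0, from 0.03 to 0.30, and 4 (66.7%) had an interval above 0, against 15.1% of all regions. The PERM1 regions were deep, with a median of 668 reads of both breeds. Of all regions with 400 reads or more, 24.1% had an interval above 0. The region with the most reads, over the upper end at chr6:63341372-63342239, had 725 and 543 reads and the ratio 0.20 (0.04 to 0.36). One of the 6, chr6:63329803-63330573, lies in PLEKHN1 and had 368 and 291 reads and the ratio 0.28 (0.05 to 0.50). Scaling within 20 bins of signal moved the PERM1 sum to 0.18, and scaling by clean reads moved it to −0.02.

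**Figure D4:**
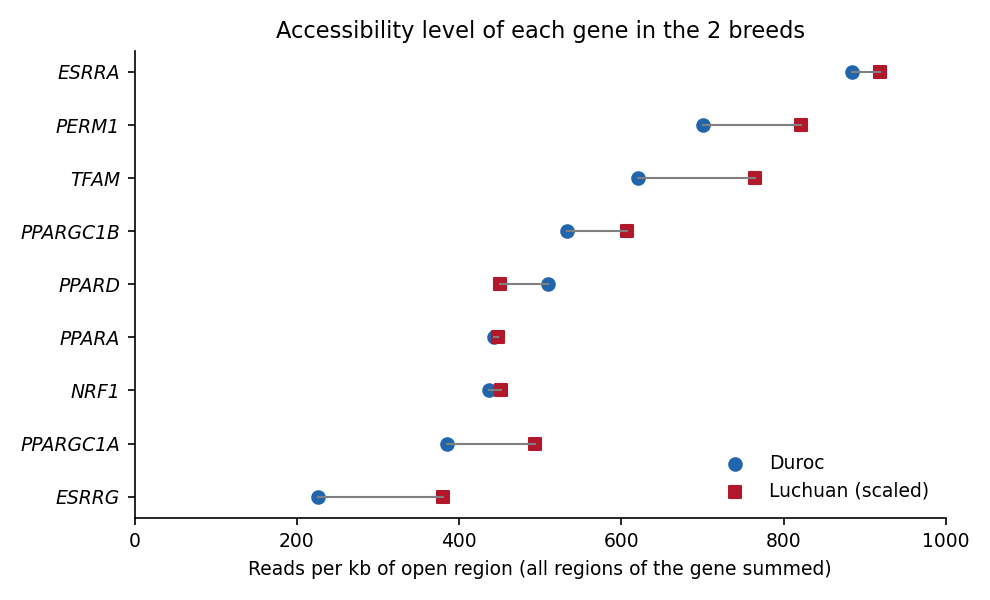
Reads per kb of open region, summed over all regions of a gene, in Duroc (circles) and in Luchuan after scaling (squares). ESRRG is lowest in both breeds, at 226 and 380, ESRRA is highest, at 885 and 919, and PPARD is the only gene whose scaled Luchuan value is the lower one.

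In order of summed ratio the members were ESRRG, PPARGC1A, TFAM, PERM1, PPARGC1B, ESRRA, NRF1, PPARA and PPARD, with a median of 0.19. The interval of ESRRG lay above those of all the others, and the interval of PPARD lay below those of all but PPARA. Between them, the neighbours in this order overlapped in their intervals, so their order is not resolved at this depth. The intervals of PPARGC1A and PPARGC1B, the coactivators, did not overlap each other.

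None of the 16 member regions with at least 50 reads within 2 kb of an end of its own gene was called. Of all regions, 2.8% were called higher in Luchuan and 4.58% higher in Duroc. At 400 reads or more these shares were 0.37% and 1.13%, so a count of 0 of 16 does not set gene ends apart. Of the 19 calls, 4 lay just beyond 2 kb, at 2.36, 2.75, 2.95 and 3.07 kb. The median ratio of the 16 regions was 0.16. The 139 farther away, with all the calls, had a median of 0.32. The strand of the genes was not available here, so it is not known which end is the transcription start. Regions near an end were deeper, with a median of 669 reads of both breeds against 157. They also came mostly from other genes than ESRRG and PPARGC1A. The only ESRRG region within 2 kb of an end had 48 reads and was left out, and PPARGC1A gave 2 regions. The parts of gene and of depth in this contrast were not tested.

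The 54 member regions under 50 reads were left out of all calls. They were short, with a median of 158 bases, and 35 were listed for Luchuan alone, 17 for Duroc alone and 2 for both. Of these, 45 had a ratio above 0 and 9 below. Over all regions of the lowest depths the median ratio also lay above 0, so their direction is not particular to the members. The member median was the higher one, at 0.79 for a median of 33.5 reads. All regions of about 33 reads had a median of 0.30, as the plot of ratio against depth shows.

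Other genes of the pathway were taken from 5 lists of 38 genes, of which 37 could be placed. Of their 321 regions with at least 50 reads, 13 were 2-fold or more higher in Luchuan and 5 higher in Duroc, against 2.8% and 4.58% of all regions, and the median was 0.05. PDK4, a kinase that turns off pyruvate dehydrogenase when fat is burned, gave 7 of the 13. Its summed ratio was 0.86 (0.77 to 0.95), with 1814 Duroc and 2143 Luchuan reads, and its highest region, chr9:75245100-75245574, had 69 and 224 reads and a ratio of 2.30. The study drew attention to PDK4 on these same samples, so it is not independent evidence of a direction. Without PDK4, 6 regions of 310 were called higher in Luchuan and 5 higher in Duroc.

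Among the 12 coactivators and corepressors, 1 region of 142 (0.70%) was called in each direction, against 2.8% and 4.58% of all regions. These were in NCOA1, a coactivator of nuclear receptors, at 1.5 (0.67 to 2.45), and in NCOR1, a corepressor that holds back PPAR and estrogen-related receptor targets in muscle, at −1.33 (−1.93 to −0.83). The gene sums of this list ran from −0.12 to 0.27. PPRC1, the remaining relative of the PGC-1 coactivators, had a summed ratio of 0.23 (0.12 to 0.34) over 2 regions.

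Of 78 regions of 5 further nuclear receptors, 4 (5.13%) were called higher in Luchuan and 1 (1.28%) higher in Duroc. Over all regions these shares were 2.8% and 4.58%. RXRA, which pairs with PPAR receptors on DNA, had 3 of the 4, at ratios of 1.16, 1.46 and 1.44, but its sum over 31 regions was 0.11 (0.05 to 0.17). A region of ESRRB, the remaining estrogen-related receptor, had 34 Duroc and 77 Luchuan reads and 1.77 (1.2 to 2.42), while the gene summed to 0.06 (−0.03 to 0.15). A region of RXRG, another RXR receptor, had 157 and 32 reads and −1.64 (−2.27 to −1.12). The summed intervals of ESRRA and ESRRB both lay below that of ESRRG.

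Most called regions of the genes downstream were those of PDK4. Against 2.8% of all regions higher in Luchuan and 4.58% higher in Duroc, the shares were 3.57% and 0% for the respiratory factor genes, 0% and 8.33% for the genes of mitochondrial DNA, and 14.3% and 2.04% for the target genes. Of 28 regions of 4 respiratory factor genes, 1 was called, in GABPA, at 1.16 (0.33 to 2.05). Of 24 regions of 7 genes that copy or transcribe mitochondrial DNA, 2 were called and both were higher in Duroc. They were assigned to POLG2, a subunit of the mitochondrial DNA polymerase, at −2.25 (−3.57 to −1.38), and to SSBP1, which binds single-stranded mitochondrial DNA, at −1.48 (−2.11 to −0.95), and both lay beyond the upper end of the gene. Of 49 regions of 9 target genes, 7 were called higher in Luchuan, all in PDK4, and 1 higher in Duroc, assigned to SOD2, the superoxide dismutase of mitochondria, at −1.16 (−2.36 to −0.26). CYCS, CPT1B, UCP3 and ACADM, genes of the respiratory chain and of fat use, had no called region and sums of 0.15, 0.15, 0.14 and 0.21. Of the other target genes without a call, ATP5F1B and IDH3A had sums of −0.01 and 0.03. FNDC5 had 0.41 (−0.34 to 1.14) from 1 region. The sum of SOD2 was −0.30 (−0.45 to −0.16).

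**Figure D5:**
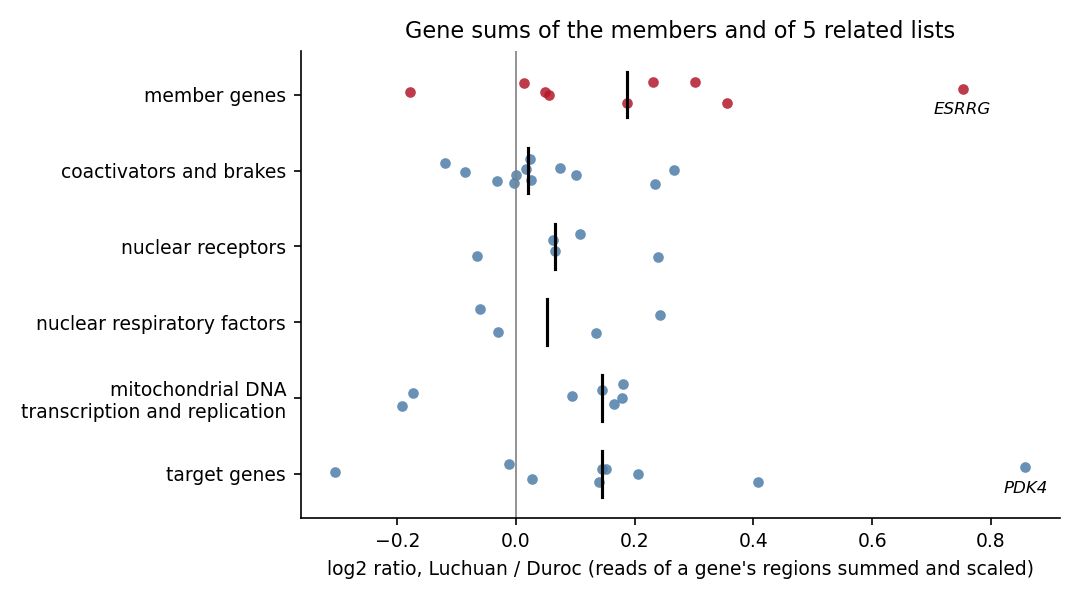
Log2 ratio of Luchuan to Duroc reads, summed over the regions of a gene and scaled, for the 9 members and 5 lists of related genes, with 1 point a gene and a bar at each median. ESRRG at 0.75 and PDK4 at 0.86 stand apart from the remaining genes, and the medians of the related lists lie between 0.02 and 0.15.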

How the data were processed

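ATAC-seq of 3 Duroc and 3 Luchuan boars was analysed; RNA-seq values were not used here. Per the labels, Trimmomatic (version 0.36) cleaned the reads, Bowtie2 placed them on Sscrofa11.1, and MACS2 is named for peaks. Duplicate removal, the shift of reads for the transposase, pooling and the counting tool are not given in the sources used here. The deposited values are unscaled read counts, with 1 count for a breed in each interval, and were taken as pooled over boars. This pooling was not tested. Their rescaled fold change, average signal and p-value for each interval, which compare the breeds, were not used.

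Starts were read as counted from 0 and are given from 1. Overlapping or adjoining common intervals were merged, each region being represented by its longest interval (217213 intervals, 140081 regions). The members and the gene lists were chosen with earlier results of these data known. All 9 members were named with their region of most reads and every called region, and up to 12 related genes with a called region. Gene positions came from a RefSeq table of Sscrofa11.1 without strand, exons or sequence, so gene ends stand in for start sites and no motif was searched. COX4I1 and MB could not be placed, and ATP5F1B was found under an older symbol. Scaling multiplied Luchuan reads by 1.53. Recovery of changed regions was tested on simulated data. Scripts ran on Python 3.11.15 with SciPy 1.17.1, pandas 2.3.3 and NumPy 2.4.6, and figures were drawn with Matplotlib 3.10.9. The alternatives changed the scaling, the merging, the window at genes, the minimum of reads, the pseudocount and the fold.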

Additional observations from a re-analysis of the deposited data

How the results depend on the processing

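No paired analysis was possible because each breed had 1 pooled count per region, and for the same reason no replicate could be left out. Of 76 alternative values for the 5 summary results, 62 stayed within the range taken as unchanged. The 19 member calls higher in Luchuan, of 155 regions, became 8 of 155 with scaling by clean reads (1.51% of all regions), 37 of 206 with a minimum of 20 reads (7.31%), 39 of 209 with no minimum (8.16%), 8 of 110 with a minimum of 100 reads (1.61%) and 48 of 155 at 1.5-fold (8.83%). The count of 0 of 155 higher in Duroc became 1 of 155 with scaling by clean reads (8.32% of all regions). It was 3 of 237 within 50 kb of the genes (4.58%) and 2 of 155 at 1.5-fold (12.5%). The 18 calls of the related genes, of 321 regions, became 30 of 550 within 50 kb. They were 11 of 224 with a minimum of 100 reads and 47 of 321 at 1.5-fold. Over all regions, 2.80% were higher in Luchuan and 4.58% in Duroc in the main setting. With a minimum of 100 reads these shares were 1.61% and 4.09%, and at 1.5-fold 8.83% and 12.5%. The median over member regions, 0.29, became 0.035 with scaling by clean reads and 0.18 within 50 kb. The median of the gene sums, 0.19, reversed to −0.065 with scaling by clean reads, as did the sums of PPARGC1B (−0.065) and PERM1 (−0.021). The sums of ESRRA, PPARA and NRF1, whose intervals included 0, also fell below 0, to −0.20, −0.24 and −0.20, so that 6 of 9 members lay below 0. Clean-read scaling moves every ratio by −0.25 by construction, and left ESRRG with 6 calls and a sum of 0.50 and PPARGC1A with 2 calls and 0.10. Over 14 alternatives the sum of ESRRG stayed between 0.50 and 0.76, that of PPARGC1A between 0.10 and 0.36, that of TFAM between 0.05 and 0.33 and that of PPARD between −0.43 and −0.05. Without values for each boar, none of these intervals holds the spread between animals.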
